A study of Mus musculus with 6 samples.

Results

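Histone cluster genes are the genes of the 4 mouse histone clusters (Hist1, Hist2, Hist3 and Hist4) that are named for the canonical histones H1, H2A, H2B, H3 and H4. Members were all genes of the authors' deposited table whose symbol begins with Hist, a cluster number from 1 to 4 and h. This gave 67 of 22381 genes, of which 6 are named for H1, 19 for H2A, 18 for H2B, 11 for H3 and 13 for H4. By cluster, 55 lie in Hist1, 9 in Hist2, 2 in Hist3 and 1 in Hist4.

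The members were compared in LSK cells, a bone marrow population that lacks mature lineage markers and carries Sca-1 and c-Kit, and in which blood-forming stem cells and early progenitors are found. All 6 samples were RNA of LSK cells from C57BL/6 mice aged 8 to 12 weeks, 3 labelled Tgif1-/- and 3 labelled wild type (Tgif1+/+ in the protocol). Tgif1 encodes a homeodomain repressor of TGF-beta signalling. The labels name no Cre, treatment or other allele, and do not say whether the 3 samples under a label were separate mice, so the spread behind the deposited p-values may be technical.

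Canonical histone genes are switched on as cells enter S phase, when new DNA has to be packed into nucleosomes. H2A, H2B, H3 and H4 form the nucleosome core around which DNA is wound, and H1 binds where the DNA enters and leaves it. Most of these genes have no introns, and most of their mRNAs end not in a poly(A) tail but in a short stem-loop that is bound by the protein SLBP and cut from the precursor with the help of the U7 small nuclear RNA. Blood-forming stem cells divide rarely, whereas the progenitors sorted with them divide often.

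The stem-loop is shown because it is the feature that sets these mRNAs apart from other mRNAs and differs in letters between H4 and the other types. Transcripts were taken from GENCODE M21 (GRCm38), in which all 67 members were found, 55 by identifier and 12 by symbol, and 64 are protein coding. The other 3 entries are matched to a processed pseudogene (Hist1h2al), a lincRNA (Hist2h2bb) and a processed transcript (Hist2h3c1). The stem-loop consensus (GGNNCTT, then NTN, then AGNGCC without a gap), searched on the transcript strand, stood after the coding part in 42 of the 64. Among all 21951 protein-coding genes of the annotation 66 (0.301%) hold it, 44 of them under a histone cluster name. Of the 22 members without it, 14 have models with at most 10 bases after the coding part, which is too short to hold it. Each window gives up to 5 bases on either side in lower case, with the stem-loop in capitals, as DNA letters.
Hist1h1e: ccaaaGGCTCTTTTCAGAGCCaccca
Hist2h2aa1: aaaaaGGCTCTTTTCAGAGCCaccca
Hist1h2bm: acaaaGGCTCTTTTCAGAGCCactaa
Hist1h2bk: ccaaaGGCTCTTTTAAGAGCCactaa
Hist1h3g: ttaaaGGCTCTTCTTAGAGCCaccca
Hist1h4d: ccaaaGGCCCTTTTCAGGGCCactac
Hist1h4i: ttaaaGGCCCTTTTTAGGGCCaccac
Hist4h4: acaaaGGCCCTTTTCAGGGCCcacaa

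Every H4 stem-loop found had the outer stem GGCCCTT and AGGGCC, and every H1, H2A, H2B and H3 stem-loop found had GGCTCTT and AGAGCC. The commonest form outside H4, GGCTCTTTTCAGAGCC, stood in 24 members: 3 H1, 10 H2A, 8 H2B and 3 H3. The commonest H4 form, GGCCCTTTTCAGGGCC, stood in 7 of the 10 H4 members with a motif. The gene models of 21 members end within 60 bases after the motif, and those of 21 others run on further, 770 bases in Hist1h4d and 2445 bases in Hist4h4. The sources used here do not say how RNA was selected for the libraries, so a level against genes with a poly(A) tail is a level in these libraries.

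Promoters were available for 61 of the 67 members in the RefSeq table (GRCm38.p6, 250 bases before to 50 after the start). Motifs were searched on both strands. CCAAT stood in all 49 promoters of H1, H2A, H2B and H3 members and in 3 of 12 H4 promoters, against 37.4% of 32851 mouse promoters. TATAAA stood in 35 of 61, or 57.4% against 13.6%. The octamer ATTTGCAT stood in 7 of 18 H2A and 6 of 16 H2B promoters and in none of the H1, H3 and H4 promoters, against 1.74% of all. AAACACA, known as the H1 box, stood in 5 of 6 H1 promoters, 2 of 18 H2A and 2 of 16 H2B promoters, against 7.18%. The promoters of an H1, an H2B and an H4 member among the highest of their type are shown with matches in capitals (ATTGG is CCAAT on the other strand). No match overlaps another in these 3. A match is a run of letters and does not show that a factor binds.
Hist1h1e promoter, chr13:23622509-23622808 (-): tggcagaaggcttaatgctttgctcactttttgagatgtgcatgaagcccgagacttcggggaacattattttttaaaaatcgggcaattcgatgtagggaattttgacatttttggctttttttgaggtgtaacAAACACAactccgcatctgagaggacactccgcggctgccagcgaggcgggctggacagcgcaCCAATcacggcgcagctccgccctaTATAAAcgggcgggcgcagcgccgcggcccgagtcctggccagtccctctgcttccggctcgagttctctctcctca
Hist1h2bm promoter, chr13:21721794-21722093 (+): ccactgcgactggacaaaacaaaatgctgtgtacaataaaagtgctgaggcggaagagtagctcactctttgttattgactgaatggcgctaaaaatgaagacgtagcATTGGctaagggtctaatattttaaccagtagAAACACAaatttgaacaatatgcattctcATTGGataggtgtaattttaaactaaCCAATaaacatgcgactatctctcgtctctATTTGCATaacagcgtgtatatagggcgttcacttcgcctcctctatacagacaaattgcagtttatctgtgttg
Hist1h4d promoter, chr13:23581318-23581617 (+): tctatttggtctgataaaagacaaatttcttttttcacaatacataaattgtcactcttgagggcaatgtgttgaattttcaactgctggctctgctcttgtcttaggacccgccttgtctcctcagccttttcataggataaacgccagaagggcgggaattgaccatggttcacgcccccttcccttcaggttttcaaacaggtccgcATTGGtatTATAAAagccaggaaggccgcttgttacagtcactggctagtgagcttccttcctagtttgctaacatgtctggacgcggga

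In the authors' deposited table each member has 1 level per group, in FPKM (fragments scaled to transcript length and to the mapped total, which puts genes on a common scale). Between members that share sequence a comparison of levels is uncertain, since how reads were split is not known. There is no level per sample and no SD. Pairs of levels name the Tgif1-/- label before the wild-type label, and a log2 ratio is the former over the latter. The standard error (SE) of a log2 ratio was taken as the ratio divided by the deposited Cuffdiff statistic, so it comes from the authors' model. The depth of the libraries is unknown. Positions cited from the table are in a mouse build that is not named and differ from those of GRCm38.

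Checks of the whole data set bear on every direction given. Tgif1 itself stood at 88.6 and 71.5 FPKM and was thus not lower under the Tgif1-/- label, and its test failed, so directions are between groups as labelled. The LSK markers Kit (193 and 202 FPKM), Cd34 (314 and 316 FPKM) and Ly6a, which encodes Sca-1 (119.6 and 88.9 FPKM), were present in both groups. The 9 mature lineage markers in the table summed to 43.7 and 45.4 FPKM, most of it from Itgam at 35.4 and 34.0 FPKM. B lineage genes were lower (4 of 9 tested called, median log2 ratio −1.21 over 13 genes) and mast cell and basophil genes higher (4 of 10 tested called, median 0.74 over 12 genes) under the Tgif1-/- label. Of 12 neutrophil granule genes 11 were lower, with a median log2 ratio of −0.82; of the 9 tested, Cuffdiff called 0 in the authors' deposited table and 5 had an unadjusted p at or under 0.05. The part of such cells in any histone level was not tested.

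No histone cluster gene passed the authors' test for a difference between the groups. Cuffdiff tested 64 of the 67 members in the authors' deposited table, and 0 had a q at or under 0.05 and 0 an unadjusted p at or under 0.05. Over all 10730 tested genes these shares were 0.662% (0.289% higher and 0.373% lower under the Tgif1-/- label) and 5.41%. The smallest p of a member in the authors' deposited table was 0.332, for Hist4h4, and 76.5% of tested genes, or 81.3% of those reaching 10 FPKM in both groups, had a p at or above that value. At the q threshold, the members' 0 of 64 is near the 0.662% of all tested genes and is not a result about them. Their Cuffdiff p-values lay higher than those of tested genes as a whole, since none of the 64 was under 0.332. Why they did was not tested. In bulk RNA of this kind, fewer cells of a type and less RNA per cell cannot be told apart.

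What the table gives beyond the missing calls is how close the levels were. Of the 60 tested members that reached 10 FPKM in both groups, 59 differed by less than 1.2-fold, against 91.4% of the 5377 tested genes that did so. Those genes are not matched for level: their medians were 33.1 and 33.3 FPKM, against 84.8 and 83.8 FPKM for all members. Members also share sequence, so their ratios are not separate values. Every one of the 64 tested members had a log2 ratio smaller in size than its own SE. The median size of the Cuffdiff statistic was 0.19 for the members and 0.49 for all tested genes, where a standard normal variable has 0.674. The log2 ratios of the tested members had an SD of 0.10 over genes, while their median SE was 0.27. The deposited errors were thus larger than the scatter of the members' ratios, and whether those errors are too wide was not tested.

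The errors set what size of difference the table can exclude. For 37 of the 64 tested members the 95% interval of the fold excluded 1.5-fold in both directions, and for 61 it excluded 2-fold. Among tested genes that reached 10 FPKM in both groups these shares were 71.8% and 96.7%. Only 60 of the 64 tested members reached that level, so the shares are not over like sets. The 3 members whose interval reached 2-fold were the lowly expressed Hist1h2aa, Hist3h2ba and Hist4h4. Of these only Hist4h4 reached 10 FPKM in both groups.

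**Figure D1:**
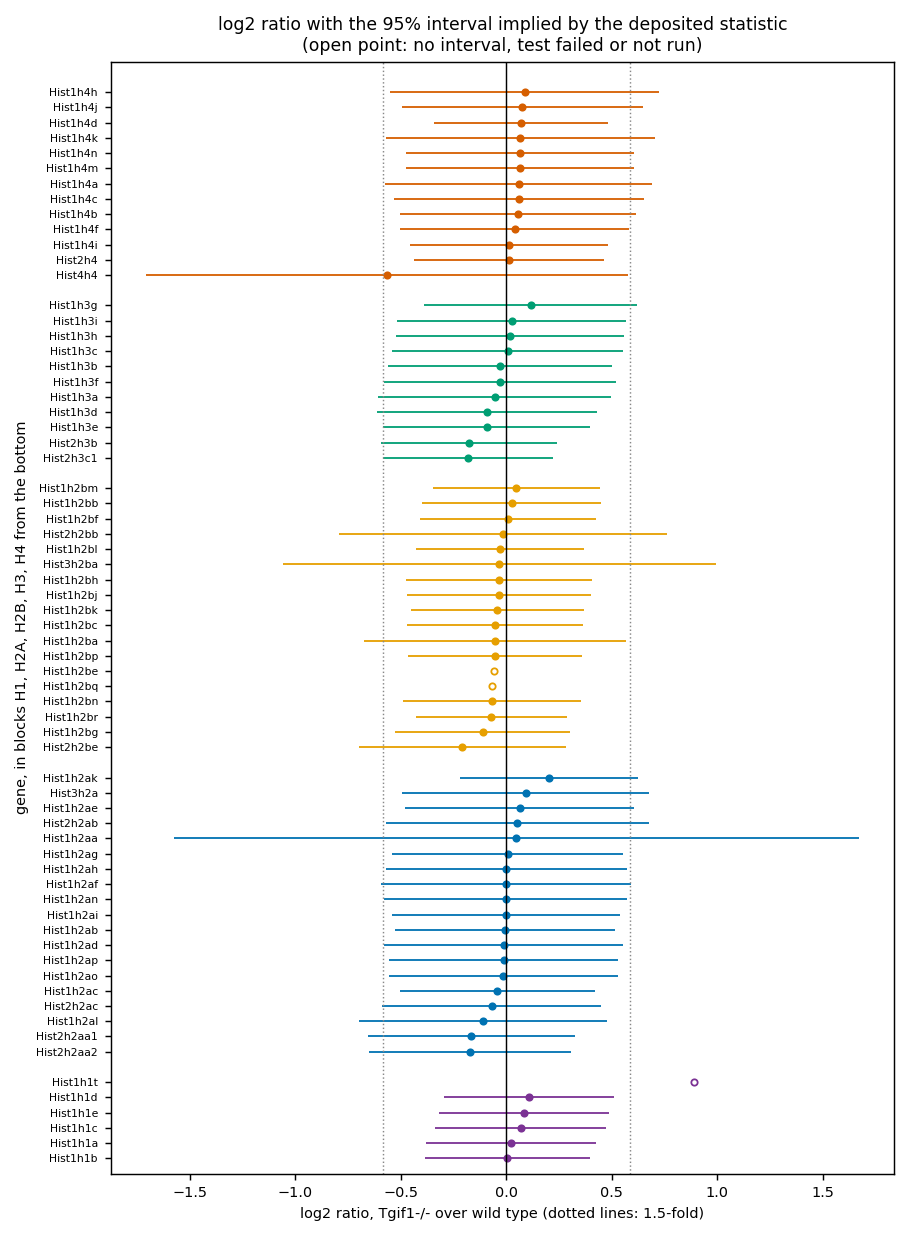
Log2 ratio of each of the 67 genes (horizontal axis, Tgif1-/- over wild type) with the 95% interval implied by the deposited statistic, in blocks by histone type; open points have no interval and dotted lines mark 1.5-fold. All 64 intervals include 0, and Hist1h2aa, at 1.45 and 1.41 FPKM, and Hist4h4 have the widest.

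As a family the members summed to 11579.5 and 11553.3 FPKM, which is 1.23% and 1.25% of all FPKM in the table. The log2 ratio of these sums was 0.0033, and it was −0.012 without Hist1h4d and −0.016 when each group was scaled by its FPKM sum. Of the 67, 33 were higher and 34 lower under the Tgif1-/- label, where 43% of the 16672 genes above 0 in both groups were higher. The median log2 ratio of the members was −0.0030 as deposited and 0.029 when ratios were centred on the median of tested genes, which itself was −0.032. Centred in this way, 43 members were higher and 24 lower.

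Levels spread far more between genes than between groups. Under the wild-type label they ran from 0.153 FPKM for Hist1h1t, a testis H1, to 2054 FPKM for Hist1h4d, with a median of 83.8 FPKM. The medians under the Tgif1-/- label and the wild-type label were 84.8 and 83.8 FPKM. In both groups 23 members stood at 100 FPKM or more and 62 at 10 FPKM or more.

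**Figure D2:**
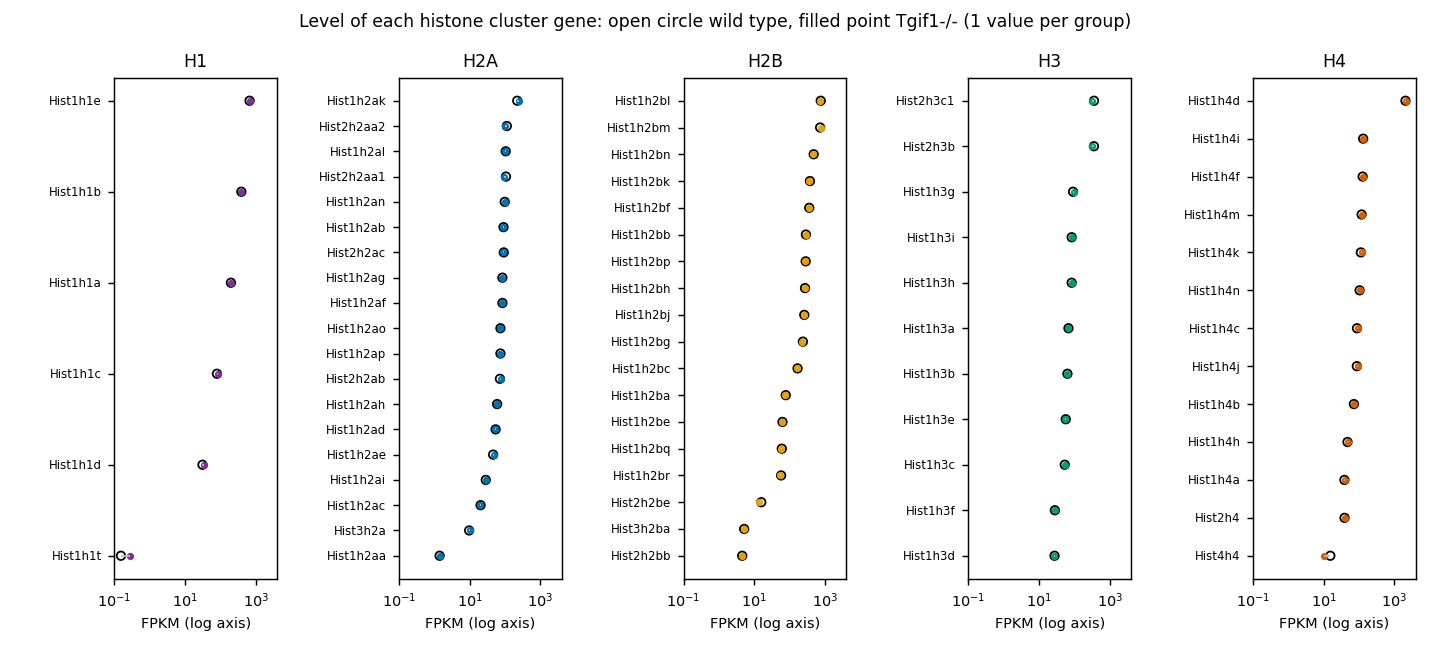
FPKM of each histone cluster gene on a log axis, in panels by histone type and ordered by level, with an open circle for wild type and a filled point for Tgif1-/- (1 value per group). The symbols overlap for nearly every gene and separate visibly for Hist1h1t and Hist4h4, at 10.4 and 15.4 FPKM.

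H1, the linker histone, stood slightly higher under the Tgif1-/- label in 6 of 6 genes, each by less than its error where it has one. Of all genes above 0 in both groups 43% were higher. The H1 genes share libraries, so 6 values on the same side do not count as 6 observations. The median log2 ratio was 0.076 and ranged between 0.069 and 0.11 over the alternatives tried. Hist1h1e was the highest, with 707 FPKM under the Tgif1-/- label and 668 FPKM under the wild-type label, and it made up 49.9% and 48.8% of the H1 sum. Its fold was 1.06, with an interval of 0.802 to 1.40, and its p in the authors' deposited table was 0.684. Hist1h1b followed at 391 and 389.8 FPKM and Hist1h1a at 201 and 198 FPKM. These were the 3 H1 genes over 100 FPKM, in the same order in both groups.

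The remaining H1 genes were Hist1h1c at 83.6 and 79.7 FPKM and Hist1h1d at 33.5 and 31.1 FPKM. Hist1h1d had the highest log2 ratio of the tested H1 genes, 0.11 with an SE of 0.21. The testis gene Hist1h1t was near the floor at 0.284 and 0.153 FPKM and was not tested, so its log2 ratio of 0.89 carries no error. The summed H1 level was 1417 and 1367 FPKM, or 3.71% higher under the Tgif1-/- label, with no error for the sum. Most H1 genes share little sequence: the 6 encode 6 different proteins with a median identity of 68.8%. A median of 1.13% of their 50-base runs recur in a transcript of another gene. For Hist1h1e, the highest H1 gene, the share was 32.0%, so how its reads were split is less certain.

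H2A, the core histone that pairs with H2B, showed 8 genes higher and 11 lower. Its median log2 ratio was −0.0033 as deposited and 0.028 when centred. Hist1h2ak was the highest, at 254 and 220.4 FPKM. Its log2 ratio of 0.20 (SE 0.22) was the highest of any tested member, with a fold interval of 0.860 to 1.54 and a p of 0.342 in the authors' deposited table. It contributed 17.8% and 15.4% of the H2A sum, which was 1428 and 1427 FPKM. Without Hist1h2ak the log2 ratio of the H2A sums moved from 0.00012 to −0.040, so the even sum holds this gene's higher value against lower values of others.

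The 2 lowest H2A ratios lay in Hist2, while 8 of the 11 lower H2A genes lay in Hist1. Hist2h2aa1 and Hist2h2aa2, which have identical coding sequences, had levels of 94.3 and 106 FPKM for the former and 99.3 and 112 FPKM for the latter. Their log2 ratios were −0.17 (SE 0.25) and −0.17 (SE 0.24). All of their 50-base runs occur in transcripts of another gene, so how reads were split between the loci is uncertain. Hist1h2al, a processed pseudogene in GENCODE M21, followed with 96.3 and 104 FPKM, a log2 ratio of −0.11 (SE 0.30).

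The most even H2A values lay in Hist1, where 9 genes had log2 ratios between −0.015 and 0.0070. Hist1h2an, the highest of these, stood at 97.5 and 97.7 FPKM, a log2 ratio of −0.0030 (SE 0.29). Hist1h2ae, also of Hist1, had a higher ratio, 0.063, at 47.9 and 45.8 FPKM. Hist3h2a, whose position in the table overlaps Trim17, stood at 10.2 and 9.62 FPKM. Hist1h2aa, a testis H2A gene, stood at 1.45 and 1.41 FPKM with a fold interval of 0.336 to 3.18, so a difference of 2-fold would not have been detectable there.

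H2B had the highest summed level of the 5 types and stood slightly lower under the Tgif1-/- label in 15 of 18 genes. Among all genes above 0 in both groups 43% were higher. Each tested H2B gene differed by less than its SE. The genes share libraries and most share part of their sequence, so 15 values on the same side do not count as 15 observations. The median log2 ratio was −0.047, beside −0.032 for all tested genes, and lay between −0.052 and −0.015 over the alternatives, centring included. The sum was 4382 and 4459 FPKM, a difference of −1.72%. Hist1h2bl and Hist1h2bm, both in Hist1, led the type and exchanged rank: Hist1h2bl stood at 738 and 753 FPKM, and Hist1h2bm at 747 and 723 FPKM. Their fold intervals, 0.743 to 1.29 and 0.785 to 1.36, both include 1, so the exchange is within the errors.

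Next in H2B came Hist1h2bn at 453 and 475 FPKM, Hist1h2bk at 362 and 372 FPKM and Hist1h2bf at 358 and 356 FPKM. Hist1h2bb, at 292 and 287 FPKM, was higher under the Tgif1-/- label in the table as deposited, as were Hist1h2bm and Hist1h2bf. In all, 11 H2B genes stood above 100 FPKM in both groups, against 1 H2A gene. The lowest ratios of the type belonged to Hist2h2be, at 13.5 and 15.6 FPKM with a log2 ratio of −0.21 (SE 0.25), and Hist1h2bg, at 218 and 236 FPKM with a log2 ratio of −0.11 (SE 0.21). Hist2h2be shares none of its 50-base runs with another gene, and its p in the authors' deposited table was 0.405. The tests of Hist1h2be (59.8 and 62.3 FPKM) and Hist1h2bq (56.9 and 59.6 FPKM) failed, so neither has an error. Hist1h2bq has the same coding sequence as Hist1h2br, which was tested at 54.2 and 56.9 FPKM (log2 ratio −0.071, SE 0.18).

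H3, which carries many of the best known histone marks on its tail, showed 4 genes higher and 7 lower, with a median log2 ratio of −0.030 that turned to 0.0016 when centred. Its sum, 1188 and 1271 FPKM, differed by −6.53%, the largest difference of the 5 types. It lay in 2 genes of Hist2, which summed to 631 and 715 FPKM. Hist2h3c1 stood at 316 and 358 FPKM and Hist2h3b at 315 and 357 FPKM, each between 26.5% and 28.2% of the H3 sum. Their log2 ratios were both −0.18 (SE 0.21 for each), and their p-values in the authors' deposited table were 0.376 and 0.403. The levels of the 2 genes lay within 1% of each other in both groups. Of their 50-base runs 89.7% (Hist2h3c1) and 100% (Hist2h3b) occur in transcripts of other genes. Hist2h3c1 also has the same position as Hist2h2aa1, so the 2 do not count as 2 separate values.

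The 9 H3 genes of Hist1 summed to 557 and 556 FPKM, 0.160% apart. Among them Hist1h3g had the highest level, 99.2 and 91.5 FPKM, and the highest log2 ratio, 0.12 (SE 0.26). Hist1h3i stood at 85.1 and 83.7 FPKM and Hist1h3h at 84.8 and 83.7 FPKM, within 1% of each other in both groups. Hist1h3e had the lowest ratio within Hist1, with 53.3 and 56.8 FPKM and a log2 ratio of −0.092 (SE 0.25). The 10 protein-coding H3 members encode 2 proteins of 136 residues from 10 different coding sequences, with a median of 97.6% identical bases.

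H4, the partner of H3, stood slightly higher under the Tgif1-/- label in 12 of 13 genes. Among all genes above 0 in both groups 43% were higher. The median log2 ratio was 0.060, and it lay between 0.058 and 0.091 over the alternatives, centring included. The sum was 3164 and 3029 FPKM, 4.45% higher. A single gene, Hist1h4d (chromosome 13 at 23673467 to 23673859 in the table), held 68.2% and 67.8% of it at 2158 and 2054 FPKM. Its log2 ratio was 0.071 (SE 0.21), its fold interval 0.790 to 1.40 and its p in the authors' deposited table was 0.734. The next H4 gene, Hist1h4i, stood at 132 and 131 FPKM, followed by Hist1h4f at 129.9 and 126 FPKM.

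The 11 H4 genes of Hist1 lay close together. All 11 were higher, with log2 ratios between 0.012 for Hist1h4i and 0.087 for Hist1h4h (49.9 and 47.0 FPKM) and an SD of 0.020 between genes, while the median SE of a gene was 0.29. Hist1h4j (91.0 and 86.4 FPKM), Hist1h4k (117 and 112 FPKM) and Hist1h4m (123 and 118 FPKM) lay at 0.076, 0.066 and 0.064. None of these ratios exceeds its error, and the genes share libraries and part of their sequence, so 11 values on one side do not count as 11 observations.

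All 13 H4 genes encode the same protein of 103 residues, the initial methionine included, from 12 different coding sequences. The 2 H4 genes outside Hist1 had the lowest ratios of the type. Hist2h4 stood at 39.2 and 38.8 FPKM, and Hist4h4 at 10.4 and 15.4 FPKM. Hist4h4, on chromosome 6 at 136752589 to 136752900 in the table, had the lowest log2 ratio of all members, −0.57 with an SE of 0.58 and a fold interval of 0.306 to 1.49. By its GENCODE M21 transcript it is among the 8 members with under 10% shared 50-base runs. That transcript has 2863 bases, against a span of 312 bases in the table. The level of Hist4h4 is the lowest of the H4 genes.

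**Figure D3:**
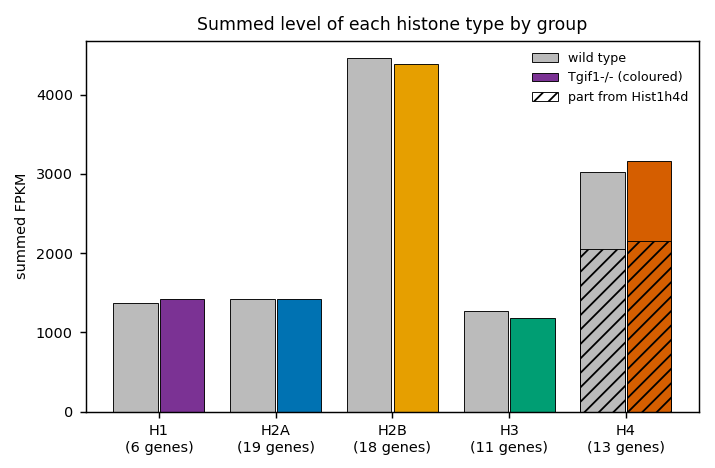
Summed FPKM of the genes of each histone type, wild type in grey and Tgif1-/- in colour, with the hatched part from Hist1h4d; a sum of 1 value per gene has no error bar. H2B has the highest bars (4382 FPKM for Tgif1-/- and 4459 FPKM for wild type). Hist1h4d makes up 68.2% of the H4 bar for Tgif1-/- and 67.8% for wild type.

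The summed FPKM of the types did not stand at the equal amounts in which the core histones enter the nucleosome. How RNA was selected is unknown, and shared sequence differs by type, with medians of 67.6% for H2A and 44.0% for H2B. The ratios are therefore ratios of FPKM, and whether the mRNAs stand in the same ratios in the cells was not tested. Summed H2B exceeded summed H2A 3.07-fold under the Tgif1-/- label and 3.12-fold under the wild-type label, and summed H4 exceeded summed H3 2.66-fold and 2.38-fold. Without Hist1h4d, H3 exceeded H4, 1.18-fold and 1.30-fold. A single gene thus sets the order of summed H3 and H4 in both groups.

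The 2 larger clusters, Hist1 and Hist2, were set side by side, since Hist3 holds 2 genes and Hist4 only Hist4h4. In Hist2, 2 genes were higher and 7 lower, with a median log2 ratio of −0.17 and sums of 1043 and 1155 FPKM, a difference of −9.65%. In Hist1, 30 were higher and 25 lower, with a median of 0.0051 and sums 1.37% higher. No gene of Hist2 passed the test, and the difference between the clusters was not tested. The 4 Hist2 genes that carry most of the lower sum (Hist2h2aa1, Hist2h2aa2, Hist2h3b and Hist2h3c1) share 89.7% to 100% of their 50-base runs with other genes, and Hist2h2aa1 and Hist2h3c1 have the same position in the table, chromosome 3 at 96049461 to 96052431. They are therefore fewer than 4 independent values.

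Along chromosome 13 the Hist1 genes fell into 3 blocks of 18, 5 and 31 genes, 122, 8.56 and 404 kb long, and Hist1h2al alone. In the table they run from 21807632 to 21929399, from 22126982 to 22135545 and from 23622919 to 24026720, with Hist1h2al at 51298057 to 51298434. Higher and lower genes were mixed in each block: 9 and 9, 3 and 2, and 18 and 13. The medians of the 3 blocks were 0.0011, 0.00088 and 0.0081. In each block that holds them, H1 and H4 genes lay above 0 and most H2B genes under it.

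**Figure D4:**
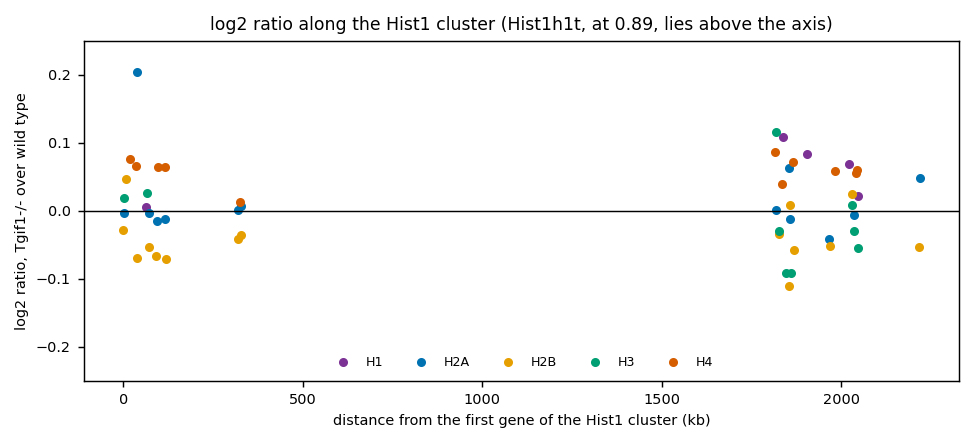
Log2 ratio of the Hist1 genes (vertical axis) against distance in kb from the first gene of the cluster, coloured by histone type; Hist1h2al, which the table puts far outside the cluster, and Hist1h1t are not drawn inside the axes. In all 3 blocks the H4 points lie above 0, between 0.012 and 0.087, and the H2B points mostly at or under 0.

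Sequence shared between members limits how far neighbouring values are separate. A median of 49.7% of a member's 50-base runs occurs in a transcript of another gene, with type medians of 67.6% for H2A, 60.4% for H3, 44.0% for H2B, 39.5% for H4 and 1.13% for H1. These percentages are over GENCODE M21 transcripts, some of which are longer than the span in the table. Hist4h4 has 2863 bases against 312, and Hist1h4d 1138 against 393. The shared part of the spans in the table was not computed. Within a histone type, levels within 1% of each other in both groups were found for 4 pairs: Hist1h2af and Hist1h2ag, Hist1h2ao and Hist1h2ap, Hist1h3h and Hist1h3i, and Hist2h3b and Hist2h3c1. Hist1h2ao and Hist1h2ap, whose pairs of levels were 73.1 and 73.9 FPKM for the former and 73.1 and 73.8 FPKM for the latter, have identical coding sequences. Among members with under 50% shared runs, a set chosen after the data were seen, the median log2 ratio was 0.012.

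**Figure D5:**
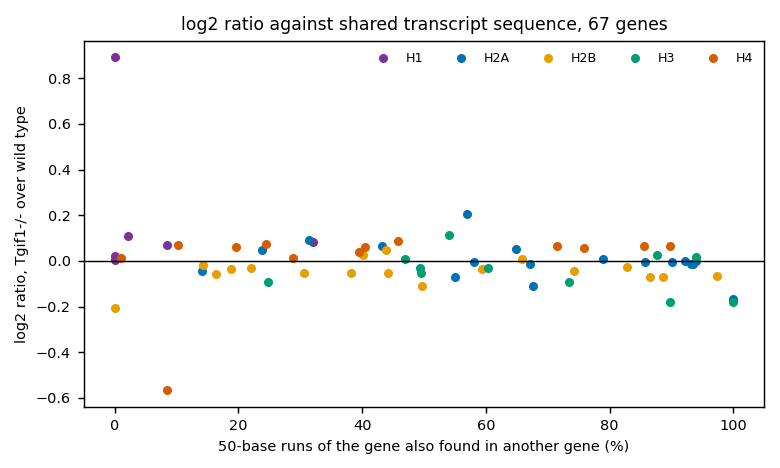
Log2 ratio of each of the 67 genes against the percent of the 50-base runs of its GENCODE M21 transcripts found in a transcript of another gene, coloured by histone type. Most genes lie near 0 at every degree of sharing; Hist1h1t (0.89), Hist4h4 (−0.57) and Hist2h2be (−0.21) share under 10%.

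Genes that act on histone mRNAs and proteins were read as fixed lists. Since 0.662% of all tested genes were called, 0 calls in lists of this size is near the background and is not a result about them. Of 19 genes for transcription and 3′ end processing of histone mRNA, 15 were tested and 0 called, with a median log2 ratio of 0.024. Slbp, which binds the stem-loop, stood at 161 and 170.1 FPKM with a failed test, Yy1 at 85.3 and 83.9 FPKM with a failed test, and the cap-binding gene Ncbp2 at 67.03 and 70.1 FPKM. Npat, the coactivator of histone genes in S phase, was singled out after its value was seen, at 22.3 and 25.8 FPKM (log2 ratio −0.21, SE 0.20). Of 20 histone chaperone and import genes 10 were tested and 0 called, with a median of −0.028. Npm1 stood at 2448 and 2540.2 FPKM and the nucleosome assembly gene Nap1l1 at 584 and 558 FPKM, both with failed tests, and Rbbp7, a histone-binding chaperone subunit, was the highest tested, at 284 and 297 FPKM. Of 10 genes for histone mRNA decay 7 were tested and 0 called, with a median of −0.070. The highest were Zcchc11 (198 and 206 FPKM, test failed), Lsm7 (54.4 and 49.5 FPKM) and Exosc10 (50.1 and 53.4 FPKM, test failed). Of 8 genes for poly(A) tail addition and binding 5 were tested and 0 called, with a median of −0.040. Pabpc1, which binds the poly(A) tail, stood at 5746 and 5570.4 FPKM, the poly(A) polymerase gene Papola at 272 and 276 FPKM and Nudt21 at 120.4 and 113 FPKM.

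S phase genes, whose products are made when the histone genes are on, also stood close to equal in the groups. Of 31 such genes 22 were tested and 0 called, with 9 higher, 22 lower and a median log2 ratio of −0.027, beside −0.032 for all tested genes. Pcna, the replication clamp, stood at 566 and 569.7 FPKM, Ccna2, the S phase cyclin, at 199 and 199 FPKM with a failed test, and Gins2, of the replicative helicase, at 198 and 198 FPKM. The authors' deposited table gives an unadjusted Cuffdiff p at or under 0.05 for 0 genes of these 5 lists, beside 5.41% of all tested genes.

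Replication-independent histones, most of which are made throughout the cell cycle from polyadenylated mRNA, summed to about the level of the whole cluster family, 10728 and 10532 FPKM over 11 genes. H2afz alone gave 7782 and 7399 FPKM, H2afy 1032 and 1261 FPKM, and H3f3a 1049 and 1009 FPKM. The tests of these 3 failed, so the levels carry no error. Of the 5 tested genes 0 were called. H2afy2, a macroH2A gene singled out after its value was seen, stood at 2.33 and 4.08 FPKM and the authors' deposited table lists an unadjusted p of 0.016 with an adjusted p (q) of 0.559. The log2 ratio of the sums was 0.027 for the replication-independent genes and 0.0033 for the cluster genes.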

How the data were processed

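RNA of LSK cells was sequenced in 6 samples, 3 per group. Per the submitters' processing notes the authors used TopHat and Cuffdiff, versions not given in the sources used here. The deposited table holds, per the file headers, 1 FPKM value per group and gene, the log2 fold change, a test statistic (a score), a p-value and a q-value; its log2 column has wild type on top and was turned round. The notes name hg19, a human build, while identifiers are mouse; of 55 members found by identifier in GENCODE M21, 0 have its position, so positions are those of the table in a build not given in the sources used here, counted from 1. The deposited q-values match p-values adjusted by Benjamini-Hochberg over the 10730 tested genes. Depth per sample is unknown, and 3143 genes have failed tests.

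Computed here, with Python 3.11.15, pandas 2.3.3, numpy 2.4.6, scipy 1.17.1 and biopython 1.88, were ratios, implied standard errors with 95% intervals, sums, motif searches and 50-base runs shared with other transcripts. A gene was called at a deposited q at or under 0.05. The calculation steps, not the size of the deposited errors, were tested on simulated data. Members and lists were chosen with earlier results of these data known. Named were, for each type, the 5 members with the highest mean FPKM and the 3 highest and 3 lowest ratios among those that reach 1 FPKM under both labels, and for each list the called genes and the 3 highest; for the marker lists of LSK, mature lineage and other cells, markers were picked after their values were seen or only counts are given. Other members were named as lowest or highest of a set, or as pairs of like sequence, after their values were seen. Besides these, erythroid genes were read: by Cuffdiff 0 of 13 tested were called, 1 had an unadjusted p at or under 0.05, and the median log2 ratio was 0.26. Alternatives were other q thresholds, pseudocounts, FPKM minimums, centring, tested members only, 1 entry per symbol, members with a locus of their own and sums without the highest member.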

Additional observations from a re-analysis of the deposited data

How the results depend on the processing

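Leaving out samples in turn was not run, because the table holds 1 value per group. No paired analysis was possible because the groups share no replicate numbers and the table holds no value per sample. The count of calls was 0 at q thresholds of 0.01, 0.05 and 0.1. Under the alternatives all 83 values of the main results stayed within a set bound. The bound was 1.5 times for counts, and for medians and sums the median SE of the tested genes of the set. For all members that SE was 0.27, wider than the SD of 0.10 of the tested members' ratios, so staying within it is a weak check. Of the alternatives, 2 (members with little shared sequence, and groups scaled by their FPKM sum) were chosen after the data were seen. Centring on the median of tested genes turned the ratio of Hist1h2an to 0.029 and of Hist1h2bl to 0.0028, and it moved the members from 33 higher and 34 lower to 43 and 24. It also turned the medians of all members, H2A and H3. Those of H1, H2B and H4 kept their sign under every alternative run. For H1 it could not have been otherwise, since all 6 ratios are above 0 and centring raises them. For H4, with 12 of 13 above 0, it was nearly so. A pseudocount cannot turn the sign of a ratio, and 1 entry per symbol left out no member. Each alternative reuses the same 1 value per group and gene, so a kept sign does not show that a direction would recur in other samples. The sums of all members and of H2A turned without their highest member and when scaled by the FPKM sum. Depth is unknown, and at the lowest members 2-fold would not have been detectable.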
